A study of Mus musculus with 8 samples.

Results

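Of the 23818 rows in the deposited table of CPM values (the reads of a row scaled to a fixed library total), 7 were taken here by their symbols: Rn45s, Rpph1, Rmrp, Mir6240, Mir6481, Lars2 and Gm20594. Rn45s (the ribosomal RNA precursor), Rpph1 (the RNA of RNase P) and Rmrp (the RNA of RNase MRP) are named in the rule by the kind of RNA they are, although earlier results of these data were known, so the tests given for them are not fully independent of that choice. Mir6240, Mir6481, Lars2 and Gm20594 were selected on their footprint values, which moved far more between genotypes than their total RNA values, so their footprint changes are given below as descriptions with no test. All 7 symbols were found in the table. The cells were mouse embryonic stem cells of strain J1 grown with 2i and LIF, which hold such cells in an undifferentiated state. All of them, wild type (WT) and Mettl6 knockout (KO) alike, received cycloheximide, a blocker of ribosome movement, 10 min before they were lysed. METTL6 methylates tRNA, and the study set RNA levels and ribosome-protected RNA of the knockout beside those of wild type. The KO cells carry the label G6, read here as 1 clone, so the effects of genotype and of clone history cannot be told apart. In total RNA only the WT titles carry the word "new", so genotype and what that word marks cannot be told apart there. Total RNA and ribosome footprints were each sequenced from 2 WT and 2 KO replicates, which gave 4 groups of 2 libraries described as biological replicates. The footprint libraries came from extract digested with RNase A and T1, from which 80S ribosomes were collected on a sucrose gradient and RNA of 26 to 32 nt was cut from a gel.

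Ribosome profiling reads out messenger RNA through the short stretch that each ribosome shields from nuclease. The digestion also cuts the RNA of the ribosome itself, and its fragments, with those of other folded or protein-bound RNAs, can enter the same size window. RNase P trims the leader from precursor tRNAs, and RNase MRP is its relative in the nucleolus, where it takes part in cleaving the rRNA precursor. Both hold a catalytic RNA and largely the same proteins. Lars2 encodes the mitochondrial enzyme that loads leucine onto its tRNA. Gm20594, also named Mtrnr2l, is annotated as a short protein-coding gene and resembles the mitochondrial large rRNA gene. Mir6240 and Mir6481 are annotated microRNA hairpins.

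The sequences of both microRNAs are shown because footprint rows with some of the largest increases carry these names. In the mature microRNAs from RefSeq (GRCm38) the capitals mark the seed, bases 2 to 8, and the seeds of the pair differ. In the hairpins the capitals mark the mature microRNA. Mir6240 lies at chr5:114851948-114852064 on the plus strand, and Mir6481 at chr3:99199344-99199453 on the minus strand, in an intron of Wars2, which is read from the other strand.
mmu-miR-6240: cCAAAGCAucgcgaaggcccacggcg
mmu-miR-6481: cACUGAAAaugcuuagaug
Mir6240 hairpin: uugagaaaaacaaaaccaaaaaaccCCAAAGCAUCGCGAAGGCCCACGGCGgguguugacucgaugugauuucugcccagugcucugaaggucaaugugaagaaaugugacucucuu
Mir6481 hairpin: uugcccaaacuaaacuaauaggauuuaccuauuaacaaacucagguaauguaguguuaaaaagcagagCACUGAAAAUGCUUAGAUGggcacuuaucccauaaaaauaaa

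Of these rows, 2 had a close counterpart among mitochondrial RNA genes. The Mir6481 gene and mt-Tf, the mitochondrial gene for the phenylalanine tRNA (chrM:1-68, plus strand), were identical at 53 of 64 aligned columns, and the mature microRNA of 19 nt was found whole within mt-Tf. Capitals mark the bases identical in both.
Mir6481 gene: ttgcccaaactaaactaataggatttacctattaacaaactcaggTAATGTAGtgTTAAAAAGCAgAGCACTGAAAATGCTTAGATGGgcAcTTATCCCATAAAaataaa
mt-Tf: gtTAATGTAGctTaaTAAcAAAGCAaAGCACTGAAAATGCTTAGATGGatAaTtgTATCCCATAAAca

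Gm20594 (chr6:79817916-79818364, plus strand) matched mt-Rnr2, the mitochondrial large rRNA gene, at 88.5% identity over 435 aligned bases. Within its coding part, 93 of 97 aligned columns were identical, and capitals mark them in both sequences. The stretch of Gm20594 is chr6:79818251-79818347, and that of mt-Rnr2 is chrM:2070-2166.
Gm20594 coding: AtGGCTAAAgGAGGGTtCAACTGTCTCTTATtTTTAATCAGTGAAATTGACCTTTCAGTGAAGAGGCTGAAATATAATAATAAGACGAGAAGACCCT
mt-Rnr2 stretch: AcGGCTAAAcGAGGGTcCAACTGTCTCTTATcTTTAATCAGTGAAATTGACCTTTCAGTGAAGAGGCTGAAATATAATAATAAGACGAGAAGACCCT

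The RNase P and MRP RNAs are shown for the parts that tell their rows from other genes. Rpph1 (chr14:50807449-50807767, minus strand, 319 nt) lies for 233 of its bases within an exon of Ccnb1ip1 on the same strand, so reads from that stretch could be counted to either gene. Its ends fall outside that exon. In the 5′ end, the near copy Rprl3, an RNase P RNA-like gene on another chromosome (chr8:3803069-3803358, minus strand), differs at the bases in capitals. The 3′ end has no capitals because it was not compared with Rprl3, whose match to Rpph1 ended at base 257 of 319. Rmrp (chr4:43492788-43493058, minus strand, 271 nt) overlaps an exon of Ccdc107 on the opposite strand by 124 bases, marked in capitals.
Rpph1 5′ end: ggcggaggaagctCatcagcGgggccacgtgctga
Rprl3 5′ end: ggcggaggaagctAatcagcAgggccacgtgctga
Rpph1 3′ end: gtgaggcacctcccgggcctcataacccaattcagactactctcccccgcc
Rmrp: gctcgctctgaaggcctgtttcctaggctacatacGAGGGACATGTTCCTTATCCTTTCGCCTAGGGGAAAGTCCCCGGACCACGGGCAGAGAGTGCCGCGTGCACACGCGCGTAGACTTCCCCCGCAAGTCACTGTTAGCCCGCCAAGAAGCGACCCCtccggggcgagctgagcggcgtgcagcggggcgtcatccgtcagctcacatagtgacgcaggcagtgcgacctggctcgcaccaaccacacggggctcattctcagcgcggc

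How far each row can be told from others by a read the length of the shortest footprint was counted as words of 26 bases held by GENCODE vM21 transcripts of other genes, on either strand. Rpph1 shared 209 of its 294 words (71.1%), of which 208 were held by Ccnb1ip1, 28 by Rprl3 and 14 by Rprl2. Rmrp shared 99 of 246 words (40.2%), all of them with the antisense-oriented Ccdc107. Gm20594 shared 57 of 424 words (13.4%), all with mt-Rnr2. Lars2 (chr9:123366927-123462664, plus strand, 21 exons) shared 57 of 3869 words (1.47%), all of which began in its 3′ UTR and were held by AA474408 or Gm15564. Neither microRNA hairpin shared a word of that length (0 of 92 for Mir6240 and 0 of 85 for Mir6481). Sharing with Rn45s was not analysed here, so whether the other rows resemble rRNA of the cytosolic ribosome was not tested.

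The estimated depth was 1301531 to 2031518 reads in total RNA libraries and 1835677 to 2960255 reads in footprint libraries, so 1 read was worth 0.338 to 0.768 CPM. Mettl6 stood at 25.6 and 27.1 CPM in WT total RNA and at 2.30 and 0 CPM in KO total RNA, which goes with the labels, while in footprints it stood at 3.38 and 6.59 CPM in WT and at 5.33 and 4.36 CPM in KO. All 8 embryonic stem cell markers listed were present, with a summed level in total RNA of 5426 to 5778 CPM in WT and 4855 to 5179 CPM in KO. Nanog stood at 1309 and 1211 CPM in WT and at 740 and 736 CPM in KO total RNA. Zfp42 was also lower in both KO libraries there, Sox2 and Tfcp2l1 were higher, and the others overlapped. Summed markers of feeder fibroblasts reached at most 18.4 CPM in total RNA, with 2 of 6 at 0 in every library, and those of primitive endoderm at most 12.3 CPM. Their part in the results below was not tested.

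Rn45s was the highest row in all 8 libraries. In total RNA it stood at 24879 and 64641 CPM in the WT libraries and at 57684 and 33845 CPM in the KO libraries. In footprints it stood at 463140 and 413086 CPM in WT and at 382894 and 425728 CPM in KO. The genotypes overlapped in both kinds of library, and the spread between the WT total RNA libraries was wider than the distance between genotype means. The total RNA mean ± SD was 44760 ± 28116 CPM in WT against 45764 ± 16856.5 CPM in KO, and the footprint mean was 438113 ± 35393 CPM in WT against 404311 ± 30288 CPM in KO (n = 2 each).

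The difference of Rn45s between KO and WT did not pass the threshold in any comparison. Differences were tested with limma-trend on log2(CPM + 1), with Benjamini-Hochberg adjustment over all rows kept and 0.05 as the threshold. The log2 difference was 0.14 in total RNA (SE 0.289, adjusted p = 0.804) and -0.12 in footprints (SE 0.678, adjusted p = 0.935), where the 95% interval ran from -1.49 to 1.26. Without WT replicate 1 the total RNA difference was -0.55, and without KO replicate 1 it was -0.24, so its direction rested on single libraries. With 2 libraries a group, an exact test cannot reach a small p. These p-values, SEs and intervals rest largely on a spread shared across rows and do not measure the spread of Rn45s itself. The same holds for the limma-trend values of every row below. Relative to their means, the replicates of Rn45s lay farther apart in total RNA than in footprints, the reverse of the order of the SEs.

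Rn45s held 46.3% and 41.3% of the WT footprint libraries and 38.3% and 42.6% of the KO ones, against 2.49% to 6.46% of the total RNA libraries. Its mean footprint CPM was 9.79 times its mean total RNA CPM in WT and 8.83 times in KO. On the log2(CPM + 1) scale the WT ratio was 3.45, and it was 2.76 without WT total RNA replicate 1 and 4.14 without replicate 2. The KO ratio was 3.19, and it was 3.58 without KO total RNA replicate 1 and 2.81 without replicate 2. Since CPM is a share of a library, these reads leave less room for every other row. Taking Rn45s out of the library total multiplied the other rows' footprint CPM by 1.62 to 1.86, and their total RNA CPM by 1.03 to 1.07. The median log2 difference over all rows kept in footprints then moved from -0.05 to -0.14, and the calls from 1242 higher and 963 lower in KO to 1169 higher and 1518 lower. The directions given below for the 6 other rows in footprints held on that scale too.

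**Figure D1:**
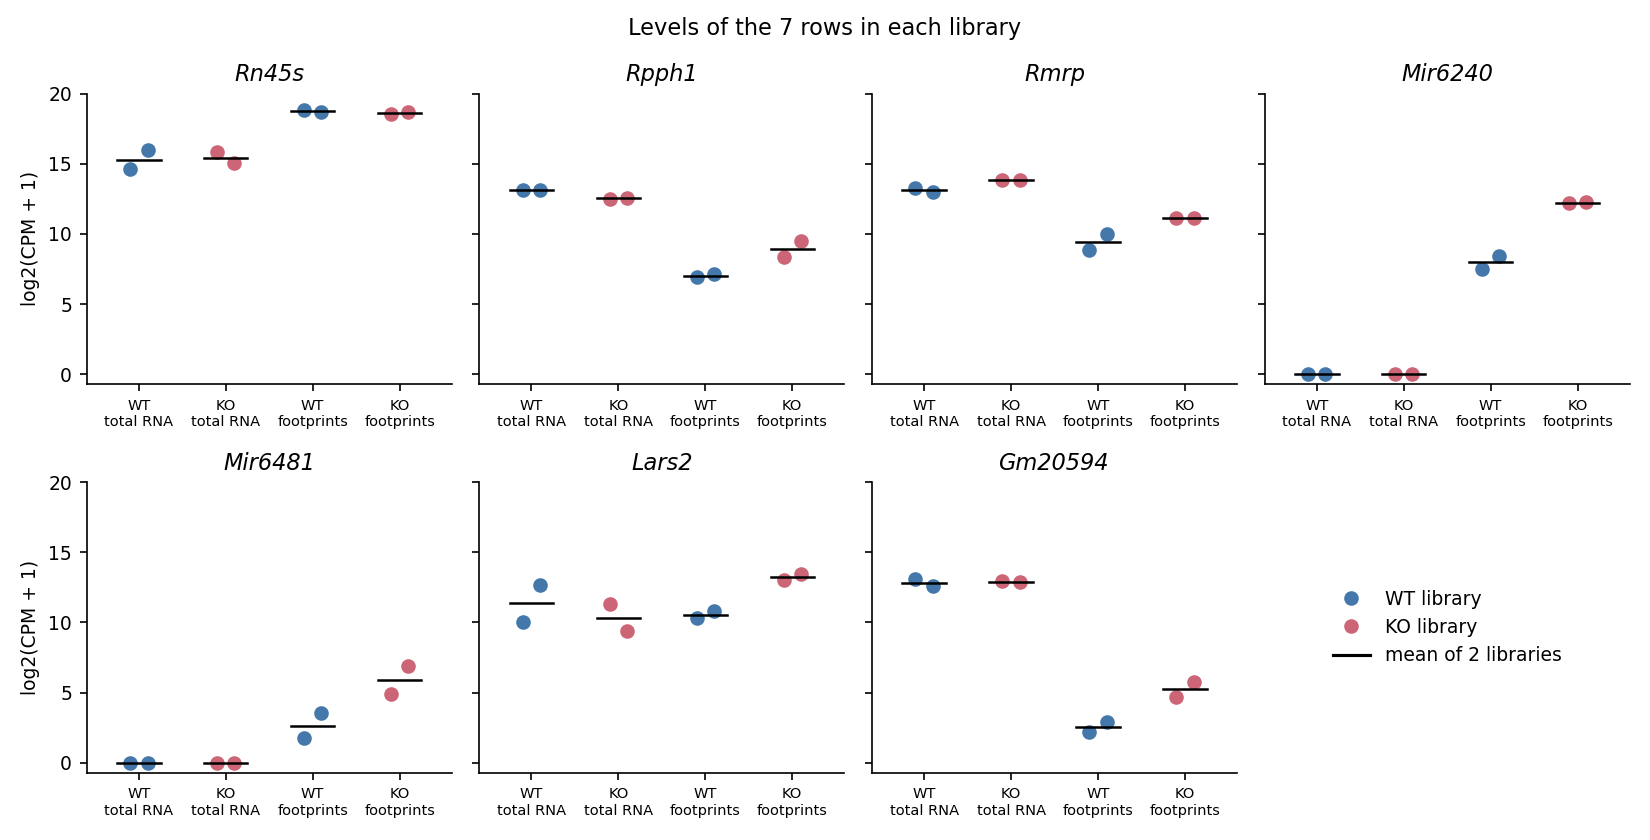
Level of each of the 7 rows as log2(CPM + 1) in every library, with WT in blue, KO in red and a black bar for the mean of 2 libraries. In footprints both KO libraries lie above both WT libraries for every row other than Rn45s, and Mir6240 and Mir6481 are at 0 in total RNA.

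In footprints, both KO libraries lay above both WT libraries for 6 of the 7 rows, all but Rn45s. Over all rows kept in footprints this share was 26.9%. Because the choice of 4 of these rows used that contrast, the count is a description. Of the CPM outside Rn45s, the 6 rows together held 0.375% and 0.566% in the WT footprint libraries and 2.58% and 3.32% in the KO ones. In total RNA they held 2.95% and 3.19% in WT and 3.24% and 2.97% in KO, so there the genotypes overlapped. In bulk libraries, fewer cells with an RNA and less of it per cell cannot be told apart.

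**Figure D2:**
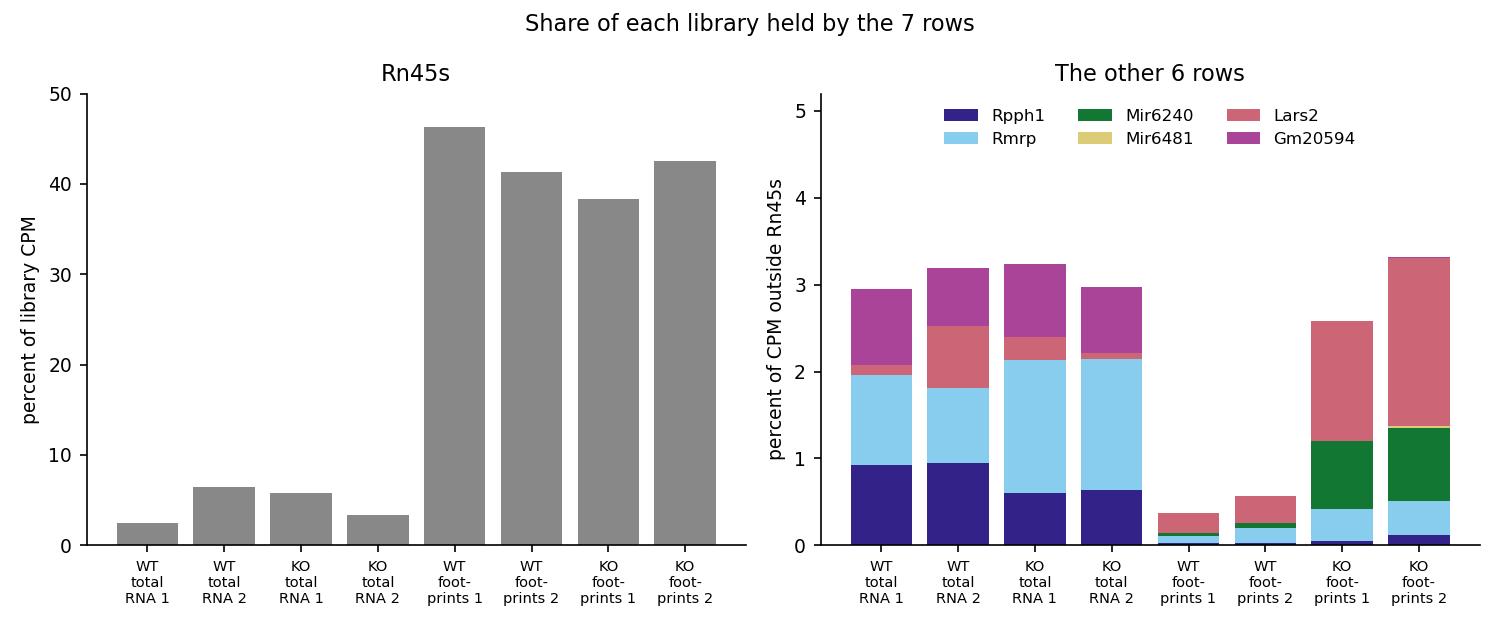
Share of each library held by Rn45s, as percent of all CPM (left), and by the other 6 rows, as percent of the CPM outside Rn45s (right, stacked by row). Rn45s holds 38.3% to 46.3% of footprint libraries, and the other 6 rows hold 2.58% and 3.32% in KO footprints against 0.375% and 0.566% in WT footprints, mostly as Lars2, Mir6240 and Rmrp.

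Rpph1 was lower in KO total RNA and higher in KO footprints. In total RNA it stood at 9019.8 and 8863 CPM in WT and at 5716 and 6119.8 CPM in KO. In footprints it stood at 119.5 and 143 CPM in WT and at 323 and 717 CPM in KO. The groups did not overlap in either kind of library, and they lay in opposite order. Over all rows kept in total RNA, both KO libraries lay below both WT ones in 29.8% and above them in 26.4%.

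The total RNA mean of Rpph1 was 1.51-fold lower in KO, at 5918 ± 285 CPM against 8941 ± 111 CPM (SD, n = 2 each; log2 difference -0.60, SE 0.0959, limma-trend adjusted p = 0.000523). The footprint mean was 3.96-fold higher, at 519.9 ± 278 CPM against 131 ± 16.6 CPM (SD, n = 2 each; log2 difference 1.87, SE 0.210, limma-trend adjusted p = 1.56e-08). The footprint log2 difference was 1.30 without KO replicate 2 and 2.45 without KO replicate 1. In footprints the KO replicates lay far apart, and limma without the trend gave an adjusted p of 0.0485. The difference between both changes, tested as an interaction of genotype with kind of library, was 2.47 on the log2 scale (SE 0.313, limma-trend adjusted p = 0.000194), a call that was lost without a filter on low values (0.393) and without the trend (0.486). Its footprint level was 1.47% of its total RNA level in WT and 8.78% in KO. These percentages depend on the library total, of which Rn45s fills far more in footprints. As a difference of mean log2(CPM + 1), the Rpph1 ratio was -6.08 in WT and -3.62 in KO. Without Rn45s in the library total it was -5.32 in WT and -2.94 in KO. The call in total RNA was lost when any single library was left out (adjusted p 0.143 to 0.190), without the trend (0.209) and in a fit of all 8 libraries (0.109), while the log2 difference stayed between -0.65 and -0.55 with a library left out.

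Rmrp rose in both kinds of library. In total RNA it stood at 10115 and 8118 CPM in WT and at 14416 and 14561 CPM in KO. In footprints it stood at 456 and 1024 CPM in WT and at 2275 and 2208 CPM in KO. The KO libraries lay above the WT ones throughout, and the WT footprint libraries were farther from each other than the KO ones.

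The total RNA mean of Rmrp was 1.59-fold higher in KO, at 14488 ± 102 CPM against 9116 ± 1412 CPM (SD, n = 2 each; log2 difference 0.68, SE 0.109, limma-trend adjusted p = 0.000528). The footprint mean was 3.03-fold higher, at 2242 ± 47.0 CPM against 739.8 ± 401 CPM (SD, n = 2 each; log2 difference 1.71, SE 0.215, limma-trend adjusted p = 1.75e-07), and the log2 difference was 1.13 without WT replicate 1 and 2.29 without WT replicate 2. The interaction was 1.04 (SE 0.336, 95% interval 0.34 to 1.73) and did not pass the threshold (limma-trend adjusted p = 0.343), but did without WT footprint replicate 2, at 1.62 (adjusted p = 0.00159). Ccdc107, which overlaps Rmrp on the opposite strand, was also higher in KO footprints (log2 difference 0.80, limma-trend adjusted p = 0.0271). In total RNA Ccdc107 did not pass the threshold (0.35, limma-trend adjusted p = 0.536). Ccnb1ip1, which overlaps Rpph1, did not pass it in footprints (-0.27, limma-trend adjusted p = 0.704) or in total RNA (0.33, limma-trend adjusted p = 0.519). The part of shared reads was not tested. The footprint level of Rmrp was 8.12% of its total RNA level in WT and 15.5% in KO. The total RNA call was lost with any single library left out (adjusted p 0.117 to 0.218), without the trend (0.208) and in the fit of all 8 libraries (0.0891), and the footprint call without the trend (0.0561).

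Of the 5 rows kept in total RNA, Rpph1 and Rmrp passed the threshold, against 13.6% of all 13222 rows kept there (6.57% higher and 7.03% lower in KO). In footprints 19% of 11624 rows passed (10.7% higher and 8.28% lower in KO), and Rpph1 and Rmrp were the higher ones among the 3 rows chosen for their kind of RNA. The interaction passed for 0.0616% of 11364 rows, with 0.044% in the higher direction, and among these 3 it passed for Rpph1. Rpph1 ranked 15 of 11364 rows by the size of the interaction, and Rmrp ranked 485.

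**Figure D3:**
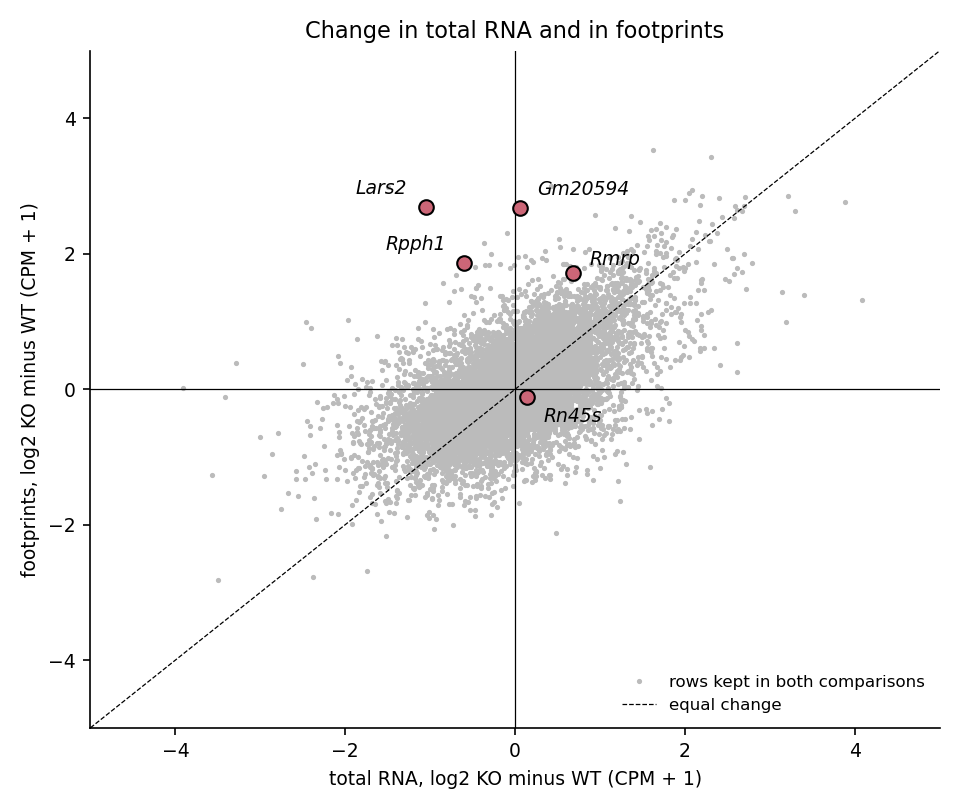
Difference between KO and WT on the log2(CPM + 1) scale in total RNA (horizontal axis) and in footprints (vertical axis) for the 11364 rows kept in both kinds of library, with 5 of the 7 rows in red and a dashed line of equal change. Rpph1, Lars2 and Gm20594 lie far above the line, Rmrp less so and Rn45s near the origin. Mir6240 and Mir6481, at 0 in total RNA, are not plotted.

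The balance between the 2 catalytic RNAs differed by genotype in total RNA. There Rmrp stood at 1.12 and 0.916 times Rpph1 in WT and at 2.52 and 2.38 times in KO. In footprints the ratio was 3.82 and 7.16 in WT and 7.04 and 3.08 in KO, with overlap of the genotypes. Per kilobase of the longest transcript, mean levels in WT total RNA were 28029 CPM for Rpph1 and 32443 CPM for Rmrp, and in KO 18552 and 51560.2 CPM.

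Rprl3, the most abundant near copy of Rpph1 in the table, fell in total RNA and rose in footprints. It stood at 3642 and 3885 CPM in WT and at 2934 and 2780 CPM in KO total RNA, a log2 difference of -0.40 (limma-trend adjusted p = 0.0120). In footprints it stood at 1.72 and 8.49 CPM in WT and at 8.69 and 16.5 CPM in KO, a log2 difference of 1.35 (limma-trend adjusted p = 0.0159), with values that amount to few reads. Rpph1 and Rprl3 share identical runs of up to 37 bases, so the split of reads between them is uncertain. Summed over Rpph1, Rprl1, Rprl2 and Rprl3, total RNA held 12778 and 12882 CPM in WT against 8735 and 9000.1 CPM in KO, 1.45-fold lower in KO. The footprint sum was 122 and 152 CPM in WT against 335 and 739 CPM in KO, 3.92-fold higher in KO. Rpph1 made up 65.4% to 70.6% of the sum in total RNA and 94.4% to 97.7% in footprints.

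Of 12 proteins of RNase P and MRP listed, 11 were kept. In total RNA 0 rose and 1 fell, where 13.6% of all rows passed, with a median log2 difference of -0.22 against -0.04 over all rows. The 1 that fell was Rpp14, at 21.7 and 34.7 CPM in WT and at 14.6 and 9.84 CPM in KO (limma-trend adjusted p = 0.0480). In footprints 2 rose and 0 fell, where 19% of all rows passed, with a median of 0.06 against -0.05 over all rows. Rpp21 went from 20.6 and 16.9 to 49.6 and 43.0 CPM in footprints, a log2 difference of 1.26 (limma-trend adjusted p = 7.35e-05). Pop5 went from 15.7 and 24.0 to 34.0 and 30.5 CPM, a log2 difference of 0.70 (limma-trend adjusted p = 0.0358). Rpp21 was also higher in both KO libraries in total RNA (log2 difference 1.33). That difference did not pass the threshold (limma-trend adjusted p = 0.0586). The interaction passed for 0 of the 11, with a median of 0.48 against 0.07 over all rows, where the adjusted p of Rpp21 was 0.980 and that of Pop5 0.686.

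Of the enzymes that trim, splice or end tRNAs, 11 of 13 listed were kept in total RNA, of which 0 rose and 2 fell beside 13.6% of all rows that passed, with a median log2 difference of -0.18. Trnt1, which adds the CCA end to tRNA, stood at 101 and 109 CPM in WT and at 33.5 and 39.4 CPM in KO (log2 difference -1.51, limma-trend adjusted p = 0.000106). Ssb, the La protein that binds the ends of new RNA polymerase III transcripts, stood at 301 and 318 CPM in WT and at 218 and 236 CPM in KO (log2 difference -0.45, limma-trend adjusted p = 0.0308). In footprints Trnt1 also fell (log2 difference -0.79, limma-trend adjusted p = 0.0293), as 1 of 10 kept, and 0 rose. Over all rows kept in footprints 8.28% were lower and 10.7% higher in KO, so 1 of 10 is near the share of all rows.

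Of 40 other folded noncoding RNAs listed, 12 matched a row, and 6 were kept in total RNA. There 0 rose and 1 (Rprl3) fell, beside 13.6% of all rows that passed. In footprints 8 were kept, 4 rose and 0 fell, where 10.7% of all rows were higher, with a median log2 difference of 0.85 against -0.05 over all rows. Rnu12, an RNA of the minor spliceosome, stood at 12.2 and 21.2 CPM in WT and at 40.2 and 68.6 CPM in KO footprints (log2 difference 1.65, limma-trend adjusted p = 7.50e-06). Rn4.5s, a small rodent RNA, stood at 219 and 458 CPM in WT and at 399 and 592 CPM in KO footprints; it passed the threshold (log2 difference 0.61, limma-trend adjusted p = 0.0356) although its groups overlapped. The other rises were Rprl2 and Rprl3, which share words of 26 bases with Rpph1 and so are not independent of it. Rprl2 stood at only 1.03 and 0 CPM in WT and at 2.53 and 3.88 CPM in KO footprints, which amounts to few reads. Vaultrc5, a vault RNA, differed little, at 14.9 and 18.3 CPM in WT and at 13.9 and 19.6 CPM in KO footprints (log2 difference 0.00, 95% interval -0.54 to 0.54). Terc, the RNA of telomerase, was higher in total RNA, at 52.6 to 73.8 CPM, than in footprints. There it stood at 0.676 and 0.471 CPM in WT and at 1.23 and 1.63 CPM in KO, which amounts to few reads. Its footprint difference did not pass the threshold (log2 difference 0.63, limma-trend adjusted p = 0.462).

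Mir6240 was listed at 0 in all 4 total RNA libraries and was abundant in KO footprints. There it stood at 185 and 343 CPM in WT (548 and 728 estimated reads) and at 4793 and 4861 CPM in KO (11685 and 8923 reads). The mean ± SD was 264 ± 111 CPM in WT against 4827 ± 47.9 CPM in KO, an 18.3-fold difference (n = 2 each; log2 difference 4.25). The KO libraries lay close together and far above the WT ones, and this was the largest increase among the 11624 rows kept in footprints. In total RNA, 3 reads, the limit that a count of 0 allows, correspond to 1.48 to 2.30 CPM at the estimated depths, for counting error alone.

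The 0 values in total RNA were shared with nearly all microRNA rows. Of 1042 rows named Mir, 0 or 1 was above 0 in a total RNA library, and 16 to 34 were above 0 in a footprint library. Mir6240 alone held 60.9% and 72.7% of the CPM of these rows in WT footprints and 95.5% and 94.5% in KO footprints. Its level was 14.8% and 19.1% of that of Lars2 in WT footprints and 56.4% and 43.8% in KO footprints.

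Mir6481 was also listed at 0 in all total RNA libraries and was low in footprints. It stood at 2.36 and 10.8 CPM in WT footprints (7 and 23 estimated reads) and at 28.3 and 118 CPM in KO footprints (69 and 216 reads). The libraries of a genotype were far apart, yet the groups did not overlap. The means were 6.59 ± 5.98 and 73.0 ± 63.2 CPM, an 11.1-fold difference (n = 2 each; log2 difference 3.22, the 4th largest of 11624). Leaving out single libraries moved the log2 difference between 2.22 (without KO replicate 2) and 4.23 (without KO replicate 1).

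Lars2 varied widely in total RNA and was higher in KO footprints. In total RNA it stood at 1073 and 6594 CPM in WT and at 2496 and 660.1 CPM in KO. In footprints it stood at 1249 and 1797 CPM in WT and at 8495 and 11096 CPM in KO. The genotypes overlapped in total RNA and were well apart in footprints.

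In total RNA the means of Lars2 were 3833 ± 3904 CPM in WT against 1578 ± 1298 CPM in KO (SD, n = 2 each), and the difference did not pass the threshold (log2 difference -1.05, SE 0.569, limma-trend adjusted p = 0.243). WT replicate 2 set its direction, since without it the log2 difference was 0.26. The footprint means were 1523 ± 388 CPM in WT against 9795 ± 1839 CPM in KO, a 6.43-fold difference (n = 2 each; log2 difference 2.70, the 21st largest of 11624). With quantile normalization the log2 difference was 2.06. The ratio of mean footprint to mean total RNA CPM was 0.397 in WT and 6.21 in KO, and both rested on single total RNA libraries. As a difference of mean log2(CPM + 1) the ratio was -0.83 in WT, -2.14 without WT total RNA replicate 1 and 0.48 without replicate 2. In KO it was 2.92, 3.88 without KO total RNA replicate 1 and 1.96 without replicate 2.

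The total RNA levels of Lars2 and Rn45s were highest in the same library within each genotype, replicate 2 of WT and replicate 1 of KO. Lars2 amounted to 4.31% and 10.2% of Rn45s in WT and 4.33% and 1.95% in KO total RNA. In footprints it amounted to 0.270% and 0.435% in WT and 2.22% and 2.61% in KO. Across genotypes the order differed, since KO replicate 2 was above WT replicate 1 for Rn45s and below it for Lars2. The part of Rn45s in the Lars2 values was not tested.

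Per kilobase of transcript, Lars2 stood far above the other mitochondrial tRNA synthetases. In total RNA it had 275 and 1693 CPM per kilobase in WT and 641 and 169.5 in KO, against medians of 7.03 to 8.56 over the other 18. In footprints it had 321 and 462 CPM per kilobase in WT and 2182 and 2849 in KO, against medians of 3.47 to 4.30. The highest of the other 18 in any library was Gars at 209.5 CPM per kilobase, a gene that, like Kars, serves the cytosol as well.

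**Figure D4:**
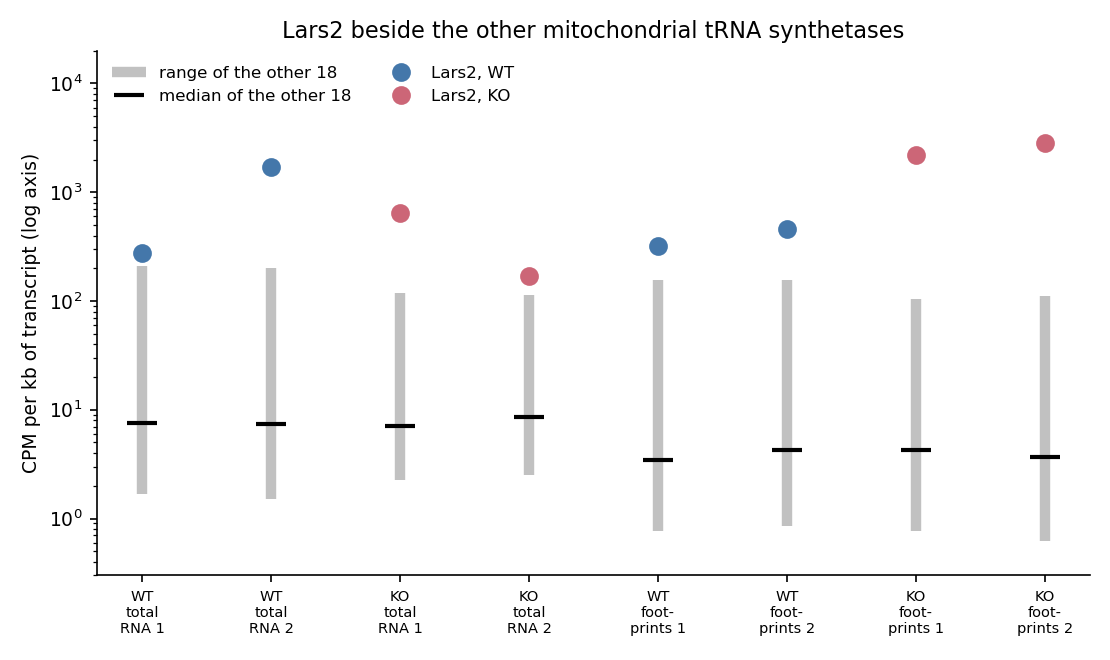
CPM per kilobase of transcript on a log axis in each library for Lars2 (WT in blue, KO in red) and for the other 18 mitochondrial tRNA synthetases (grey bar for their range, black dash for their median). Lars2 lies above the range of the others in all 8 libraries and reaches 2182 and 2849 in KO footprints, where the medians of the others stay between 3.47 and 4.30 over all footprint libraries.

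Of the other 18 synthetases, 0 rose and 2 fell in total RNA, near the 13.6% of all rows that passed there, with a median log2 difference of -0.02. In footprints 1 rose and 2 fell, near the 19% of all rows that passed, with a median of 0.20 against -0.05 over all rows. Gars fell in both, from 499 and 482 to 281 and 268 CPM in total RNA (log2 difference -0.83, limma-trend adjusted p = 0.000236). Kars fell in both as well, from 337 and 287 to 131 and 146 CPM in total RNA (log2 difference -1.16, limma-trend adjusted p = 5.87e-05). Yars2 rose in footprints, from 19.3 and 16.9 to 36.1 and 33.2 CPM (log2 difference 0.90, limma-trend adjusted p = 0.00472). Lars, the cytosolic leucine enzyme, fell in total RNA, from 328 and 308 to 206 and 209.96 CPM (log2 difference -0.61, limma-trend adjusted p = 0.00495). In footprints Lars stood at 123 and 149.9 CPM in WT and at 121 and 123 CPM in KO (log2 difference -0.15, limma-trend adjusted p = 0.596).

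Gm20594 was abundant in total RNA and low in footprints. In total RNA it stood at 8591 and 6248 CPM in WT and at 7925 and 7358 CPM in KO, and the KO values lay between the WT ones. The means were 7419 ± 1657 and 7642 ± 401 CPM (SD, n = 2 each), and the difference did not pass the threshold (log2 difference 0.06, SE 0.125, 95% interval -0.20 to 0.32, limma-trend adjusted p = 0.806). Without WT replicate 2 it was -0.17, and with quantile normalization it was 0.32 and passed the threshold (limma-trend adjusted p = 0.0204).

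In footprints Gm20594 stood at 3.72 and 6.59 CPM in WT (11 and 14 estimated reads) and at 25.4 and 54.5 CPM in KO (62 and 100 reads). The groups did not overlap. The means were 5.15 ± 2.03 and 40.0 ± 20.5 CPM, a 7.75-fold difference (n = 2 each; log2 difference 2.68, the 22nd largest of 11624). The footprint level was 0.0694% of the total RNA level in WT and 0.523% in KO. None of the 24 listed mitochondrial rRNA and tRNA symbols matched a row of the table, so mt-Rnr2 and mt-Tf themselves were not analysed here. Mir6481 and Gm20594, which resemble them, stood in footprints at ratios of 0.636 and 1.64 in WT and 1.11 and 2.16 in KO.

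The 7 rows fell towards both ends of the footprint to total RNA ratio, although Lars2 lay near the middle in WT. The ratio was taken as the difference of mean log2(CPM + 1) averaged over the genotypes. Mir6240, Mir6481, Lars2 and Gm20594 were chosen on footprint shifts beyond total RNA, so their places are a description. Mir6240 and Mir6481 were at 0 in total RNA, so the added 1 alone sets that side of their ratio. Among 9972 rows with a mean of at least 5 CPM, Mir6240 ranked 2 from the highest, Mir6481 15, Rn45s 29 and Lars2 407. Gm20594 ranked 5 from the lowest, Rpph1 78 and Rmrp 470. Lars2 ranked 4459 from the highest in WT and 37 in KO. The median log2 ratio over all 9972 rows was -0.98 in WT and -0.91 in KO. The WT rank of Lars2 rested on single total RNA libraries, since its log2 ratio there lay between -2.14 and 0.48 with 1 of them left out, and in KO between 1.96 and 3.88.

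**Figure D5:**
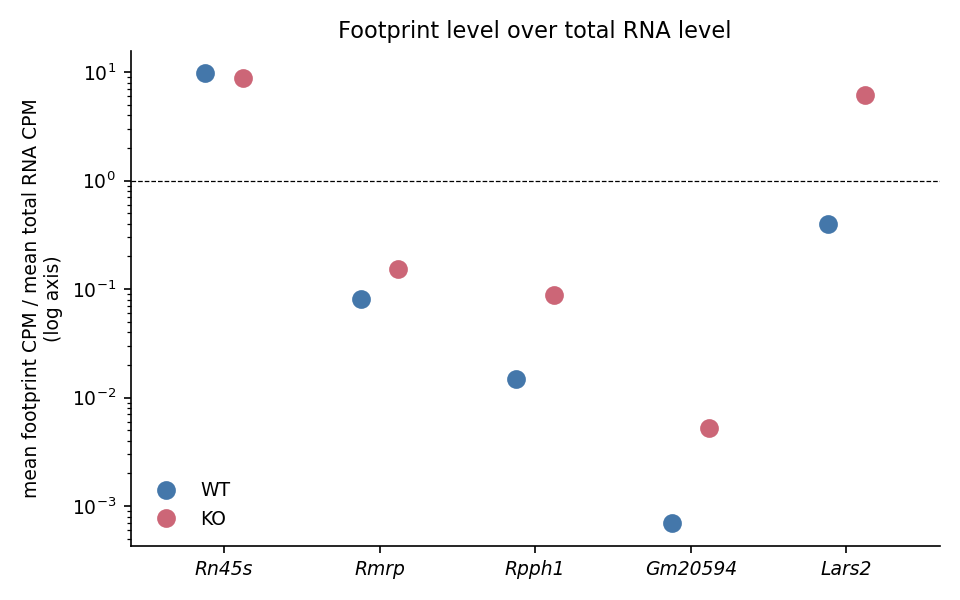
Ratio of mean footprint CPM to mean total RNA CPM in WT (blue) and KO (red) on a log axis, for the 5 rows above 0 in total RNA, with a dashed line at equal levels. Rn45s is at 9.79 and 8.83, Rpph1 goes from 0.0147 to 0.0878, Gm20594 from 0.000694 to 0.00523 and Lars2 from 0.397 to 6.21. Lars2 and Gm20594 were chosen on footprint shifts beyond total RNA, so their places are a description.

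The 10 rows with the highest ratio were Gm25018, Mir6240, Rpl14-ps1, Rn4.5s, Rpl31-ps12, B230208H11Rik, H2-T23, Mir6236, Raver1-fdx1l and Gm13826. Gm25018, which GENCODE types as an rRNA gene and whose every word of 26 bases is held by 31 other genes, stood at 4413 and 5293 CPM in WT and at 8772 and 9324 CPM in KO footprints. Its footprint difference was 0.90 on the log2 scale (limma-trend adjusted p = 0.00284), and in total RNA it stood at 0.984 and 22.5 CPM in WT and at 0 and 0.656 CPM in KO. Rows next to the members in this order were Sf3a2, Klf2 and Mir682 for Rn45s, Nup62-il4i1, 2310014L17Rik and Mir1983 for Mir6481, and Krtcap2, Rps13 and Mrps28 for Lars2. Next to Gm20594 were 6820431F20Rik, Cmah and Rprl3, next to Rpph1 were Prnp, 9030025P20Rik and Rex2, and next to Rmrp were Usp40, Arhgap21 and Ago3.

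Likeness of pattern was measured as Pearson's r of log2(CPM + 1) over the 8 libraries, which mostly follows the contrast of footprints with total RNA and is given as a description. The row most like Rn45s was Sf3a2 (r = 0.997), that most like Rpph1 was Stil (0.994) and that most like Rmrp was Arl6ip1 (0.998). Mir6240 was most like Actb (0.986), Mir6481 most like Cd9 (0.960), Lars2 most like Nup62cl (0.967) and Gm20594 most like Zfp65 (0.998). Among the members, Rpph1 and Gm20594 had an r of 0.993, Rpph1 and Rmrp 0.954, and Mir6240 and Mir6481 0.950. Lars2 had low values with Rpph1 and Rmrp (both -0.15) and 0.55 with Mir6240.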

How the data were processed

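The authors deposited CPM (reads of a row scaled to a fixed library total) for 23818 gene symbols in 8 libraries. Per the submitters' processing notes, CASAVA 1.8.2, Bowtie2 and RSEM were used with mm10; the versions of the latter and the strand setting were not given in the sources used here. All 8 columns were used (0 left out). Depth was estimated from the most frequent CPM value above 0 in each library, taken as the worth of 1 read. Then 89.2% to 90.5% of total RNA and 65.3% to 72.8% of footprint values above 0 were whole reads within 0.01. Counts were thus not recovered, and CPM was tested. Groups came from the library titles. The WT total RNA titles carry an extra word ("new") that the KO total RNA titles and the footprint titles lack. What it marks cannot be told apart from genotype in total RNA, nor in the interaction, which uses total RNA. Values were taken to log2(CPM + 1), and rows with a mean of at least 1 CPM (in each kind of library for the interaction) were tested with limma-trend (limma 3.58.1, R 4.3.3). Folds are ratios of mean CPM, and log2 differences understate changes of low rows.

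Annotation and transcripts came from GENCODE vM21 (GRCm38, the assembly of mm10), microRNAs from RefSeq, and matches from blastn 2.17.0 (E below 0.0001). Named rows are the 7 members, the 3 rows most like each by r and by ratio, the 10 highest ratios and examples from 6 gene lists. Mettl6, cell type markers and genes that overlap members are named as well. Members and lists were chosen with earlier results of these data known. Alternatives changed the pseudocount (0.1, 5), the filter, the library total, the normalization, the trend, the block and the libraries. Replicate numbers were not taken as pairs.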

Additional observations from a re-analysis of the deposited data

Results flagged for a closer look

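The difference between KO and WT in Rpph1 was of opposite sign in the 2 kinds of library: it was lower in KO total RNA (5716 and 6119.8 CPM against 9019.8 and 8863 CPM) and higher in KO footprints (323 and 717 CPM against 119.5 and 143 CPM). The test of this difference itself, an interaction of genotype with kind of library over all 8 libraries, gave 2.47 on the log2 scale (limma-trend adjusted p = 0.000194). Over its 17 alternatives the value lay between 1.89 and 3.04, and the adjusted p between 6.27e-07 and 0.486.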

How the results depend on the processing

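Beside the main settings, the call counts moved by over 1.5 times as follows. In total RNA 1799 rows passed, 937 without a filter on low values and 0 without the trend (2856 at an unadjusted p under 0.05), and 0 with any single library left out (1863 to 3655 unadjusted). In footprints 2205 passed, 652 without the trend and 574 to 1064 with a library left out. For the interaction 7 passed, 2 at a pseudocount of 0.1, 14 at a pseudocount of 5, 12 without Rn45s in the library total, 1 without a filter, 4 with the filter at 5 CPM, 0 without the trend (848 unadjusted), and 2 to 46 with a library left out. Below the threshold fell Rpph1 in total RNA (-0.60) and Rmrp in total RNA (0.68), without the trend and in the fit of all 8 libraries, Rmrp in footprints without the trend (1.71), and the Rpph1 interaction without a filter and without the trend (2.47). With a library left out, Rpph1 in total RNA ran from -0.65 to -0.55 and Rmrp from 0.52 to 0.84, never past the threshold, and the Rmrp interaction from 0.45 to 1.62. Directions between KO and WT turned only with a library left out: Rn45s in total RNA (-0.55 to 0.83; -0.24 without KO replicate 1) and its interaction (-0.94 to 0.43; 0.13 without KO total RNA replicate 1), Lars2 in total RNA (-2.36 to 0.26) and Gm20594 in total RNA (-0.17 to 0.29). The Lars2 footprint to total RNA ratio in WT also turned (-2.14 to 0.48). Where 1 group keeps a lone library, its spread is taken from the others. For the other rows and ratios, 184 of 198 alternative values kept their call or moved by less than the root of the summed group variances. That bound is wide for rows whose replicates lie far apart, such as Mir6481. Without Rn45s or the 7 rows in the library total, the ratios of Rpph1 in WT and of Rn45s and Rmrp in KO moved beyond it. The ratio of Gm20594 in WT did so under some alternatives. The causes were not tested, and rows of a few reads, such as Mir6481 and Gm20594 in footprints, are limited by depth.

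The samples share only a replicate number: deviations of same-numbered libraries correlated at -0.03 to 0.07. With the replicate number as a block, 2056 rows passed in total RNA, 1833 in footprints and 9 for the interaction. Lars2 in total RNA then passed the threshold at the same log2 difference of -1.05 (limma-trend adjusted p = 1.63e-11, against 0.243). Its same-numbered libraries moved in opposite directions (1073 to 2496 CPM in replicate 1, 6594 to 660.1 CPM in replicate 2). That p-value rests on the spread shared across rows, does not measure the spread of Lars2 and shows no paired fall. No other call of the 7 rows changed.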
